A study of Mus musculus with 9 samples.

Results

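Mouse liver tumors carrying Smad7 together with Snail (S7HP+Snail, tumors 13, 14 and 15) were compared with tumors carrying a Luc construct (LHP, tumors 2, 3 and 6). The comparison used 6 of the 9 expression profiles of the series, and the 3 tumors with Smad7 and no added Snail (S7HP, tumors 9, 11 and 12) served to place the results. The 9 tumors came from the livers of C57BL/6 mice aged 11 weeks. Genes were kept if 3 or more of the 9 profiles listed them at a log2 value of 4 or above, which left 14215 of 24421 gene symbols. The files' column names pair LHP with Luc, the luciferase reporter that serves as a neutral insert, S7HP to Smad7 and S7HP+Snail to both Smad7 and snail. The letters HP, which all 3 groups share, are not spelled out in the labels. They stand beside each insert, so whatever they denote was present in the Luc controls too. Total RNA, 500 ng per tumor taken up in Trizol, went into QuantSeq 3′ libraries. The labels do not say how the constructs were delivered, which cells carried them or which promoters drove them. Nor do they say whether the 3 tumors of a group came from separate animals, so the p-values below measure the spread between these samples.

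Transforming growth factor β (TGF-β) binds a pair of receptor kinases that phosphorylate Smad2 and Smad3, which join Smad4 and enter the nucleus to switch on target genes. Smad7 is an inhibitory Smad that binds the activated receptor and shuts this step off, and it is itself a target of the pathway. Snail, the protein of Snai1, is another target, a zinc-finger repressor of epithelial genes that can start an epithelial-to-mesenchymal transition (EMT). The comparison addresses how tumors given both inserts differ from tumors given neither.

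Expression was read by 3′ sequencing, in which reads come from the 3′ end of each polyadenylated transcript whatever its length. Values are log2 of a quantile-normalized count plus 1, and differences are between group means on that scale, so 1 unit is a doubling for well expressed genes and less than the true change for genes near 0. Values of S7HP+Snail are given for tumors 13, 14 and 15, values of S7HP for tumors 9, 11 and 12, and values of LHP for tumors 2, 3 and 6, in that order. Relative depth, recovered from the lowest steps in each file, was 0.917 to 2.16 in S7HP+Snail and 0.850 to 1.07 in LHP, where 1 stands for the mean step of the 9 libraries. A total of 3 reads corresponded to log2 values between 1.22 and 2.64, and values below that range carry little weight. S7HP+Snail was the most uneven group, with a median SD per gene of 0.45, against 0.41 in S7HP and 0.35 in LHP. Tumor 14 stood apart, at 118.1 on the second principal component against 31.3 and 25.9 for the other S7HP+Snail tumors. Alb, the defining hepatocyte transcript, was present in every tumor, at 15.56, 16.85 and 15.56 in S7HP+Snail and 13.46, 14.07 and 12.98 in LHP. The samples were whole tumors, so fewer cells of a type and less RNA per cell cannot be told apart.

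In S7HP+Snail tumors, 8 of 20 collagens, 7 of 24 targets of TGF-β and 7 of 22 mesenchymal genes fell relative to LHP tumors. Those that rose were 12 of 24 interferon response genes, 8 of 20 fetal liver genes and 4 of 24 hepatocyte secreted proteins. Against these directions, 1 TGF-β target rose and 1 fetal liver gene fell. Without LHP tumor 3, the falling counts were 4, 4 and 0, and the rising counts 5, 6 and 2, in the order given. Of 14215 genes tested, 1026 passed limma at a Benjamini-Hochberg adjusted p under 0.05 (7.22%), with 476 higher (3.35%) and 550 lower (3.87%) in S7HP+Snail. The 3 S7HP+Snail values lay wholly outside the 3 LHP values for all 1026 genes, which was also the case for 30.5% of all genes tested. More than a 4-fold difference was seen in 540 of the 1026. The median difference over all genes tested was -0.001, which the quantile normalization holds near 0. The number called depended on the LHP tumors, and was 452, 293 and 311 with LHP tumor 2, 3 or 6 left out. It was 682 with only the S7HP+Snail and LHP libraries in the fit, and the number higher was 313 without S7HP+Snail tumor 13. S7HP tumors also differed from LHP in these lists (limma, same threshold). Lower in S7HP were 11 of 24 TGF-β targets (2 were higher), 18 of 20 collagens and 16 of 22 mesenchymal genes. Their median differences were -1.24, -2.81 and -2.0. Higher were 10 of 24 interferon response, 9 of 20 fetal liver and 10 of 24 hepatocyte secreted genes, with medians of 1.03, 1.33 and 1.43. The median of S7HP minus LHP over all genes tested was 0.021. The share of all genes called in S7HP against LHP is not given here, and the 3.35% and 3.87% above do not apply to these counts. Of the genes called in S7HP+Snail against LHP, 33 of 476 higher and 35 of 550 lower also differed from S7HP. A missed threshold does not show equal levels.

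**Figure D1:**
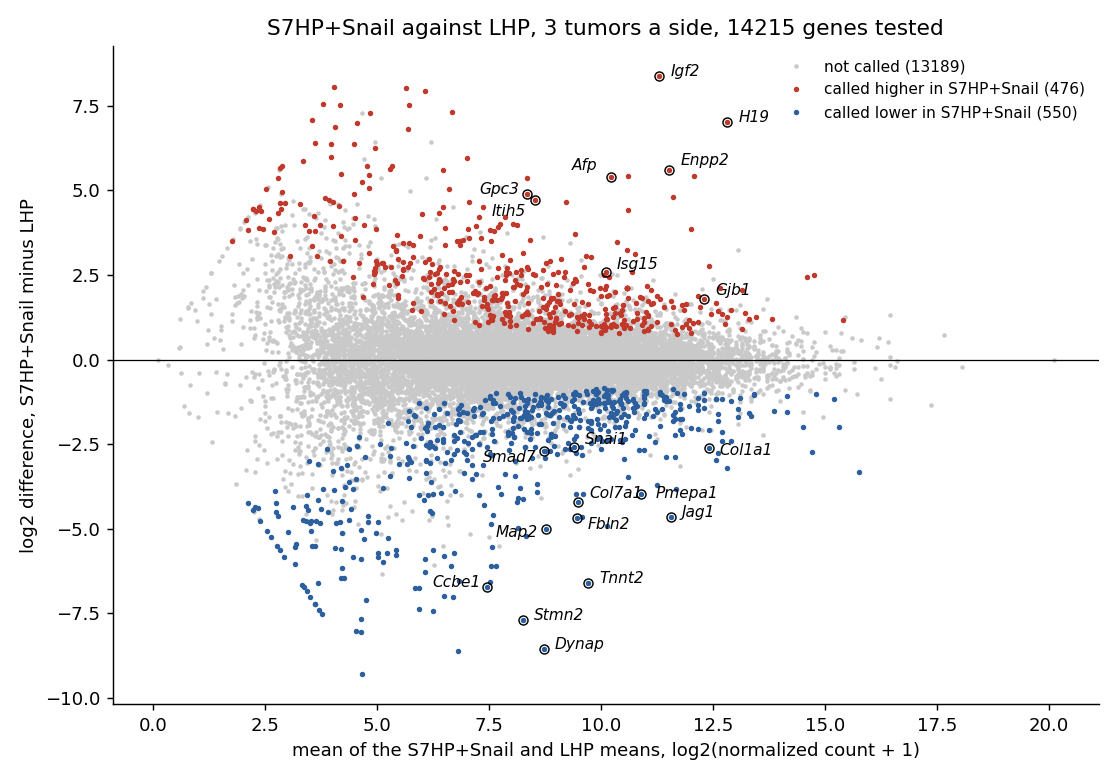
Each point is 1 of 14215 genes, with the mean of the S7HP+Snail and LHP group means on the x axis and the S7HP+Snail minus LHP difference on the y axis, both in log2 units. Red points are the 476 genes called higher and blue points the 550 called lower in S7HP+Snail, grey points were not called, and circles mark genes discussed in the text, with Igf2 at 8.38 and Dynap at -8.55.

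The plot of called members per gene list sets the pathway lists side by side. Against 3.35% of all genes tested, called-higher shares were largest for interferon response genes (12 of 24) and fetal liver genes (8 of 20). Against 3.87%, called-lower shares were largest for collagens (8 of 20), mesenchymal genes (7 of 22), integrins and laminins (5 of 17) and TGF-β target genes (7 of 24). The lists share called members, so their counts are not separate lines of evidence. Smad7, Skil, Snai1, Fstl3, Itgav, Itga5, Areg, Pdgfrb, Cdkn1c and Tspan8 were each counted in more than 1 list.

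**Figure D2:**
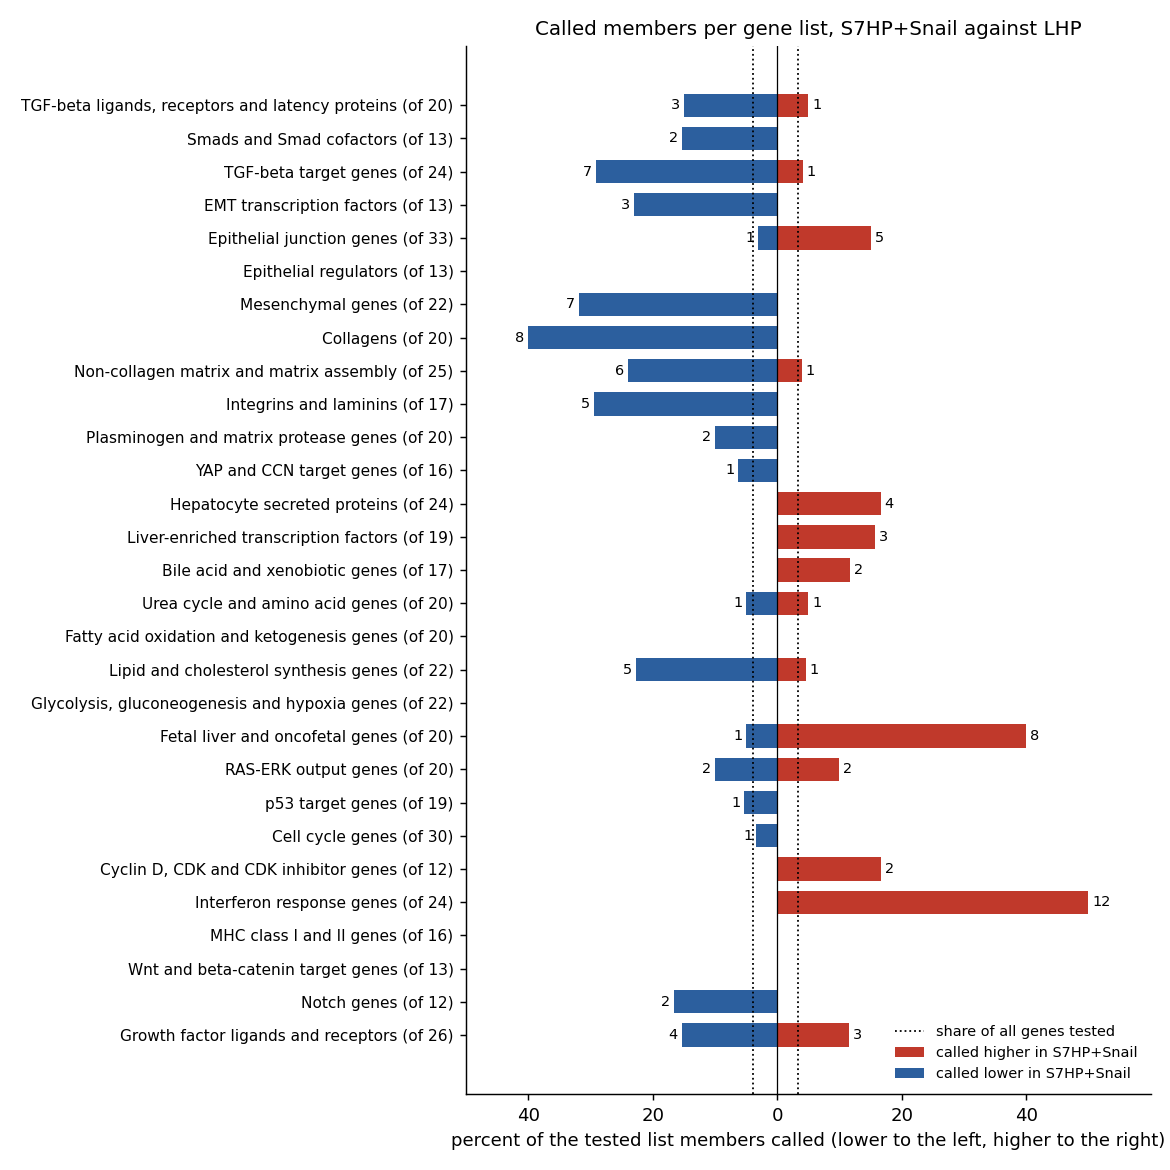
Bars show the percentage of the tested members of each gene list called higher (red, to the right) or lower (blue, to the left) in S7HP+Snail against LHP, with the number of genes at the bar's end and the number tested in the row name. Dotted lines mark the shares over all genes tested, 3.35% higher and 3.87% lower; interferon and fetal liver genes reach farthest to the right, collagens farthest to the left.

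The genes that name the constructs were not higher in S7HP+Snail. Smad7 (GRCm38 chromosome 18, 75367529 to 75395935) was at 7.31, 6.77 and 8.0 in S7HP+Snail and 10.23, 10.50 and 9.49 in LHP. Snai1 (chromosome 2, 167538195 to 167542814) was at 8.53, 7.31 and 8.47 in S7HP+Snail and 9.93, 11.16 and 10.99 in LHP. Every S7HP+Snail tumor was below every LHP tumor for both genes. The differences were -2.71 ± 0.38 for Smad7 and -2.59 ± 0.43 for Snai1 (SE; limma, Benjamini-Hochberg adjusted p = 0.00505 and 0.00931). Whether either insert kept the native 3′ end of its gene is not stated, and only then would 3′ reads have counted it, so these levels do not check the labels. Hras, a RAS oncogene, was at 9.93, 9.22 and 10.54 in S7HP+Snail and 9.73, 10.17 and 10.38 in LHP, and the groups overlapped. Trp53, the p53 tumor suppressor, was at 5.21, 5.86 and 5.51 in S7HP+Snail and 6.20, 6.63 and 6.28 in LHP. Neither gene passed the test (limma, Benjamini-Hochberg adjusted p = 0.778 and 0.18).

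Within the TGF-β pathway, several feedback targets fell, and 1 receptor fell while another rose. Of 6 feedback targets tested, 4 fell, and of all 24 TGF-β target genes 7 fell and 1 rose, with a median difference of -1.14. Pmepa1, which encodes a membrane protein that holds back Smad signaling, was at 9.80, 7.75 and 9.13 in S7HP+Snail and 13.03, 13.02 and 12.52 in LHP. Skil, the gene of the Smad-binding repressor SnoN, was at 10.31, 10.02 and 10.56 in S7HP+Snail and 11.91, 12.15 and 11.84 in LHP. Both sets of values were well apart, with the S7HP+Snail tumors low, and Pmepa1 fell by 3.97 ± 0.51 (SE) and Skil by 1.67 ± 0.22 (limma, Benjamini-Hochberg adjusted p = 0.00371 and 0.00418). The calls of Smad7, Snai1, Pmepa1 and Skil held with any 1 of the 9 libraries left out. Fstl3, which encodes a follistatin-like antagonist of activin, fell to 7.28, 5.97 and 7.47 in S7HP+Snail, against 9.09, 9.38 and 9.12 in LHP. Itgav, the integrin αV chain, and Bhlhe40, a repressor of the clock and hypoxia programs, made up the 7 that fell. Tsc22d1, a leucine-zipper gene first found as TGF-β inducible, rose to 12.80, 13.75 and 13.51 in S7HP+Snail, against 12.00, 11.86 and 11.20 in LHP. The number falling was 4 without LHP tumor 2, 3 or 6, and Tsc22d1 lost its call without LHP tumor 3 or 6 (limma, Benjamini-Hochberg adjusted p = 0.0512 and 0.0646). Of 13 Smads and Smad cofactors, Skil and Smad7 fell and none rose, with a median of -0.51.

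Among the 20 ligands, receptors and latency proteins tested, 3 fell and 1 rose. Inhba, the activin A subunit, was at 10.87, 7.49 and 9.84 in S7HP+Snail and 13.80, 13.32 and 12.17 in LHP, a fall of 3.70 ± 0.78 (SE; limma, Benjamini-Hochberg adjusted p = 0.026). Acvr1, a type I receptor for activins and bone morphogenetic proteins, was at 9.35, 9.53 and 10.23 in S7HP+Snail and 11.10, 11.63 and 11.18 in LHP and fell by 1.60 ± 0.30. Tgfbr2, the type II receptor that binds TGF-β itself, was at 11.34, 10.94 and 11.59 in S7HP+Snail and 9.90, 10.34 and 10.18 in LHP and rose by 1.15 ± 0.23. The groups did not overlap for any of the 3. Without LHP tumor 3, none of Inhba, Acvr1, Tgfbr2 and Fstl3 passed (limma, Benjamini-Hochberg adjusted p = 0.0903, 0.0666, 0.0542 and 0.0698), and each was also lost without at least 1 of the other LHP tumors, so that the count falling was 1 without LHP tumor 2 or 6. Tgfbr2 was lost without S7HP+Snail tumor 13 or 15 as well (adjusted p = 0.0523 and 0.0501). Of the receptor Smads and Smad4, none passed: Smad2 was at 10.45, 11.14 and 10.53 in S7HP+Snail and 11.16, 10.80 and 10.09 in LHP, and Smad3 at 8.82, 9.63 and 9.59 in S7HP+Snail and 10.20, 10.23 and 10.13 in LHP (limma, Benjamini-Hochberg adjusted p = 0.972 and 0.107).

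Of 13 transcription factors of EMT, 3 fell (Snai1, Foxc2 and Prrx1) and none rose against LHP, with a median difference of -0.71. Against S7HP, 2 of the 13 were higher and none lower, with a median of 1.63. Over all genes tested 1.01% were higher than S7HP, and the median was -0.025. The median of S7HP minus LHP for the list was -2.17. Foxc2, a forkhead factor of mesenchymal cells, was at 2.94, 1.0 and 3.91 in S7HP+Snail and 6.71, 7.97 and 7.59 in LHP. Prrx1, a homeobox factor of mesenchyme, was at 9.40, 10.15 and 7.56 in S7HP+Snail and 11.48, 11.17 and 11.51 in LHP. Both were low in every S7HP+Snail tumor, and Foxc2 fell by 4.81 ± 0.76 and Prrx1 by 2.35 ± 0.57 (SE; limma, Benjamini-Hochberg adjusted p = 0.00789 and 0.0396). The Foxc2 call held whichever library was left out, and the Prrx1 call was lost without S7HP+Snail tumor 13 or any single tumor of S7HP or LHP (highest adjusted p = 0.118). Snai2, which encodes Slug, was at 4.92, 4.70 and 4.11 in S7HP+Snail and 7.33, 7.27 and 6.77 in LHP and missed the threshold (adjusted p = 0.0511). Zeb1 and Zeb2, the zinc-finger partners of Snail in repressing Cdh1, differed by -0.43 ± 0.34 and -0.71 ± 0.36 (adjusted p = 0.471 and 0.254). Twist1 was at 8.85, 4.60 and 5.43 in S7HP+Snail and 8.92, 9.10 and 7.37 in LHP, with tumor 13 at the LHP level and tumors 14 and 15 below it.

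Of 22 mesenchymal genes, 7 fell and none rose, with a median difference of -1.16, and 5 of the 7 encode cytoskeletal proteins. Nes, the intermediate filament nestin, was at 9.09, 9.74 and 9.99 in S7HP+Snail and 12.17, 12.25 and 12.43 in LHP. Vim, the mesenchymal filament vimentin, was at 12.40, 11.68 and 12.63 in S7HP+Snail and 13.99, 14.30 and 13.51 in LHP. Lgals1, the lectin galectin-1, was at 14.72, 13.54 and 14.75 in S7HP+Snail and 15.64, 16.85 and 16.49 in LHP. All 3 were lower in every S7HP+Snail tumor, by 2.67 ± 0.51 for Nes, 1.70 ± 0.39 for Vim and 1.99 ± 0.42 for Lgals1 (SE; limma, Benjamini-Hochberg adjusted p = 0.0168, 0.0316 and 0.0241). Itga5, the fibronectin receptor chain, fell by 3.10 ± 0.60, and the contractile genes Acta2, Cnn1 and Tpm1 fell by 2.19, 2.44 and 1.18. None of these 7 calls held in all the leave-one-out fits: the count was 4 without S7HP+Snail tumor 14 or without S7HP tumor 11 or 12, 2 and 1 without LHP tumors 2 and 6, and 0 without LHP tumor 3. Fibronectin itself did not separate the groups, with Fn1 at 17.91, 18.29 and 17.60 in S7HP+Snail and 18.29, 18.29 and 17.91 in LHP. Cdh2, the mesenchymal cadherin, was at 8.62, 9.92 and 9.27 in S7HP+Snail and 10.75, 10.16 and 10.31 in LHP (adjusted p = 0.0776).

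Collagens were the list with the largest called-lower share: 8 of 20 fell, none rose, and the median difference was -1.92. Col7a1, the anchoring-fibril collagen that links basement membrane to stroma, was at 7.72, 6.66 and 7.77 in S7HP+Snail and 11.37, 11.64 and 11.77 in LHP. Col1a1, an α chain of the main fibrillar collagen, was at 11.82, 10.81 and 10.65 in S7HP+Snail and 13.66, 13.67 and 13.75 in LHP. Its partner chain Col1a2 was at 12.01, 10.24 and 10.96 in S7HP+Snail and 13.76, 13.88 and 14.43 in LHP. The S7HP+Snail tumors were low throughout and tumor 13 was the highest of them for both type I chains. Col7a1 fell by 4.21 ± 0.41, Col1a1 by 2.60 ± 0.34 and Col1a2 by 2.96 ± 0.43 (SE; limma, Benjamini-Hochberg adjusted p = 0.00122, 0.00378 and 0.00608). Col5a1, a fibril-nucleating collagen, fell by 2.37 ± 0.39, and the other 4 that fell were Col5a2, Col6a3, Col8a1 and Col15a1. The calls of Col7a1, Col1a1, Col1a2 and Col5a1 held with any library left out, and these 4 were the ones that remained without any 1 LHP tumor; the count was 5 without S7HP+Snail tumor 15. By kind, 4 of 7 fibrillar chains fell, against 1 of 6 basement-membrane chains. The type IV chain Col4a1 was at 11.88, 10.69 and 11.54 in S7HP+Snail and 12.01, 12.02 and 12.07 in LHP (adjusted p = 0.226).

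Among 25 other matrix genes, 6 fell and 1 rose. Fbln2, an elastic-fiber glycoprotein, was at 8.34, 6.37 and 6.64 in S7HP+Snail and 11.44, 12.61 and 11.32 in LHP, a fall of 4.68 ± 0.56 (SE; limma, Benjamini-Hochberg adjusted p = 0.00272). Lox, the enzyme that cross-links collagen, was at 11.02, 8.86 and 10.84 in S7HP+Snail and 12.98, 13.56 and 12.86 in LHP, a fall of 2.89 ± 0.56 (adjusted p = 0.0188). With Loxl1, Loxl3 and the collagen hydroxylase Plod2, 4 of 8 cross-linking genes fell, and Bgn, the proteoglycan biglycan, fell by 2.03 ± 0.42. Nid2, a basement-membrane nidogen, was at 8.13, 9.15 and 8.36 in S7HP+Snail and 7.34, 6.77 and 7.35 in LHP and rose by 1.39 ± 0.36 (adjusted p = 0.0469), a call lost without any 1 of the 9 libraries. Fbln2 kept its call in each leave-one-out fit and was the only one of the 6 to do so, since the count falling was 1 without LHP tumor 2, 3 or 6, 2 without S7HP+Snail tumor 15 and 3 without S7HP tumor 12. Among cell-surface receptors for matrix, 5 of 9 integrins fell (Itga5, Itga3, Itgav, Itga6 and Itgb1) and none of 8 laminins did. The integrin calls rested on single libraries too, with 0 left without LHP tumor 2 or 3, 1 without LHP tumor 6 or S7HP+Snail tumor 14, 2 without S7HP+Snail tumor 13 and 3 without S7HP tumor 11 or 12. Of 20 plasminogen and matrix protease genes 2 fell: Adam12 and Adam19, membrane metalloproteinases, fell by 3.06 ± 0.53 and 1.98 ± 0.37 and lost their calls without LHP tumor 6 (adjusted p = 0.0549 and 0.065).

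Markers of stellate cells and fibroblasts were lower in part. Their list is not independent of those above: it holds Col3a1, also counted among the collagens, and Dcn and Lum, also counted among the other matrix genes. Acta2 is in the stellate cell, smooth muscle and mesenchymal lists. Of 14 such markers 2 fell (Pdgfrb and Acta2) and none rose. Their summed level was 13780 to 19500 normalized counts in S7HP+Snail and 28230 to 41450 in LHP, and none of the 14 was at 0 in all 6 tumors. Pdgfrb, the platelet-derived growth factor receptor of pericytes and stellate cells, was at 9.72, 8.36 and 8.04 in S7HP+Snail and 10.10, 11.10 and 11.00 in LHP. Of 6 smooth muscle markers 2 fell, and their summed level was 3846 to 8105 in S7HP+Snail and 10350 to 19790 in LHP. The stellate cell count was 4 without S7HP+Snail tumor 13, 1 without S7HP+Snail tumor 15 or S7HP tumor 11 or 12, and 0 without S7HP+Snail tumor 14 or LHP tumor 3 or 6. The smooth muscle count was 3 without S7HP+Snail tumor 15, 1 without S7HP+Snail tumor 13, S7HP tumor 9 or LHP tumor 2, and 0 without any other single tumor. The part of stromal cells in the lower collagen and mesenchymal levels was not tested.

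**Figure D3:**
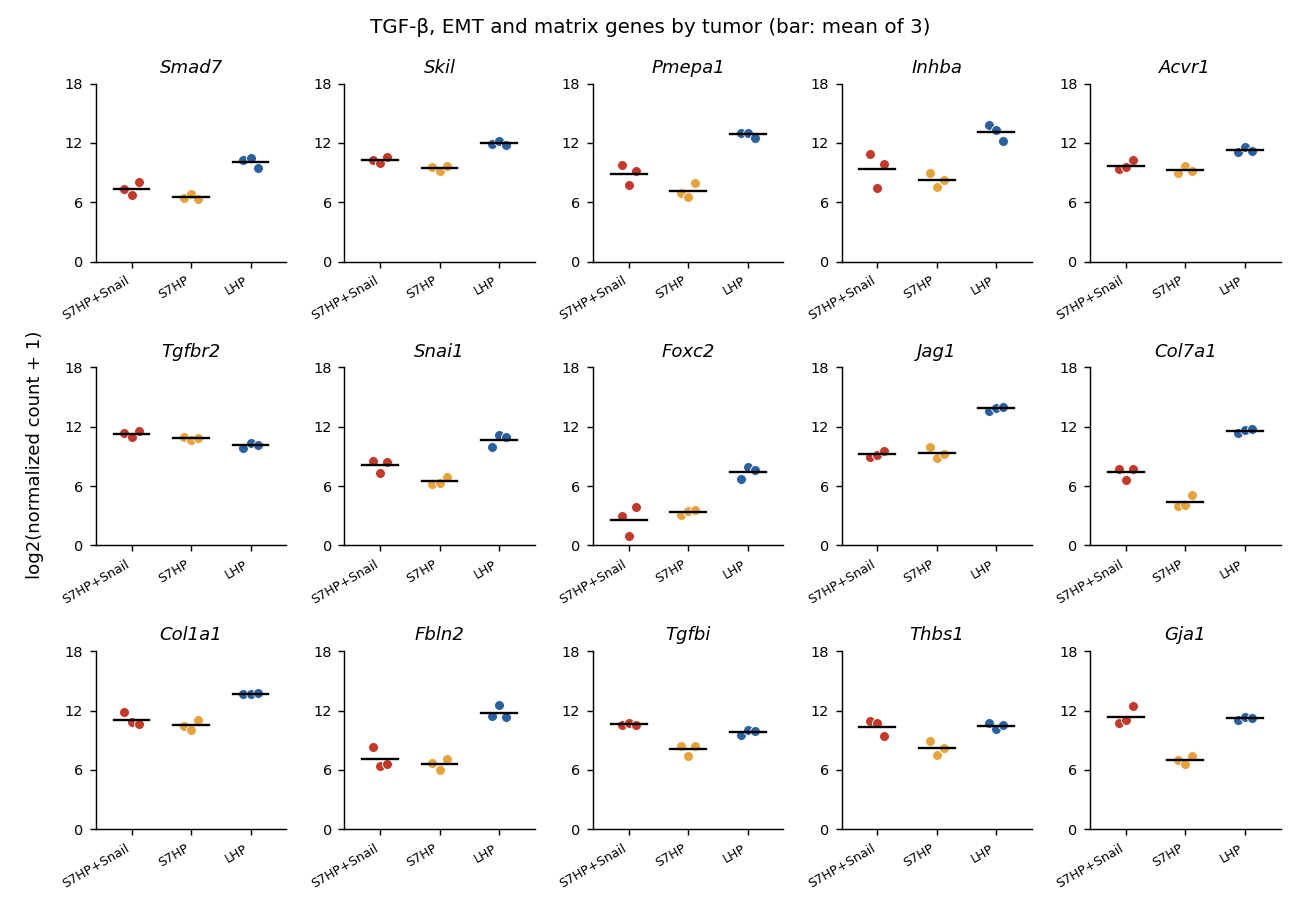
Each panel shows 1 gene, with 1 point per tumor in log2(normalized count + 1) for S7HP+Snail (red), S7HP (orange) and LHP (blue), and a bar at the mean of 3. The first 12 genes were called in S7HP+Snail against LHP, with Tgfbr2 alone of them higher; Tgfbi, Thbs1 and Gja1 were not called against LHP and were higher in S7HP+Snail than in S7HP.

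Some mesenchymal and matrix genes were not called against LHP and were higher in S7HP+Snail than in S7HP. They were chosen after their values were seen. Gja1, the gap junction protein connexin of mesenchymal cells, was at 10.76, 11.00 and 12.42 in S7HP+Snail, 6.98, 6.63 and 7.43 in S7HP, and 11.06, 11.34 and 11.25 in LHP. Fstl1, a secreted follistatin-like glycoprotein, was at 12.37, 12.45 and 12.01 in S7HP+Snail, 9.94, 8.96 and 10.33 in S7HP, and 12.64, 13.15 and 13.11 in LHP. S7HP+Snail and LHP tumors overlapped for Gja1 and lay close together for Fstl1, and the S7HP tumors lay below all of them. Serpinh1, the collagen chaperone HSP47, was at 15.18, 15.67 and 15.30 in S7HP+Snail, 12.17, 12.50 and 13.42 in S7HP, and 14.66, 15.56 and 15.12 in LHP. Tgfbi, a secreted TGF-β-induced adhesion protein, was at 10.58, 10.78 and 10.56 in S7HP+Snail, 8.40, 7.36 and 8.44 in S7HP, and 9.55, 10.03 and 9.90 in LHP. Against S7HP the differences were 4.38 ± 0.41 for Gja1, 2.53 ± 0.34 for Fstl1, 2.69 ± 0.35 for Serpinh1 and 2.57 ± 0.31 for Tgfbi (SE; limma, Benjamini-Hochberg adjusted p = 0.00277, 0.0077, 0.00708 and 0.00517), a comparison in which 2.3% of genes tested were called (1.01% higher and 1.29% lower). Against LHP they were 0.18 ± 0.41, -0.69 ± 0.34, 0.27 ± 0.35 and 0.81 ± 0.31 (adjusted p = 0.813, 0.238, 0.673 and 0.134), and a p that misses the threshold does not show equal levels. The calls of these 4 genes against S7HP held with any library left out. Nr2f1, Vcan, Lamb1, Tcf4 and Lpar1 were also called against S7HP and not against LHP, with differences from S7HP of 5.58, 2.10, 2.54, 2.74 and 3.31 and from LHP of 1.23, -0.03, -0.74, 0.85 and -0.69. Of these, Vcan and Lamb1 lost their call against S7HP without S7HP tumor 11 (highest adjusted p = 0.0633 and 0.0573) and Tcf4 without S7HP tumor 11 or 12 (0.0831). Thbs1, the TGF-β-activating thrombospondin, differed from S7HP by 2.18 ± 0.46 (adjusted p = 0.043), a call lost in 8 of 9 leave-one-out fits, all but the one without S7HP+Snail tumor 15, with a highest adjusted p of 0.143.

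Col7a1 did not follow that arrangement. With S7HP at 3.97, 4.08 and 5.14, its S7HP+Snail level lay between the other groups, higher than S7HP by 2.98 ± 0.41 and lower than LHP by 4.21 ± 0.41 (limma, Benjamini-Hochberg adjusted p = 0.00802 and 0.00122), and both calls held with any library left out. Nmnat2, an NAD-synthesizing enzyme best known from axons, was likewise between, at 6.16, 6.02 and 6.34 in S7HP+Snail, 3.04, 3.53 and 2.69 in S7HP, and 8.93, 10.32 and 9.38 in LHP (adjusted p = 0.00908 against S7HP and 0.00332 against LHP). Gpx8 and Lclat1 were the only other genes called lower than LHP and higher than S7HP, and their calls against LHP were lost in 7 and 5 leave-one-out fits, all 3 LHP tumors among them (highest adjusted p = 0.139 and 0.099). These 2 comparisons share the S7HP+Snail tumors.

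Epithelial junction genes gave a mixed picture against LHP: 5 of 33 rose, 1 fell, and the median difference was 0.24. Against S7HP, 6 of the 33 were lower and none higher, with a median of -1.08. Over all genes tested 1.29% were lower than S7HP, and the median was -0.025. Of these 6 calls, only that of Pkp2 held without each S7HP tumor in turn. The median of S7HP minus LHP for the list was 1.48. Gjb1, the main hepatocyte connexin (chromosome X, 101376378 to 101385629), was at 13.46, 13.47 and 12.63 in S7HP+Snail and 11.10, 11.45 and 11.60 in LHP. F11r, the tight junction adhesion molecule JAM-A (chromosome 1, 171437535 to 171464603), was at 13.42, 11.59 and 12.24 in S7HP+Snail and 11.21, 10.33 and 10.52 in LHP. Every S7HP+Snail tumor was above every LHP tumor for both, and Gjb1 rose by 1.80 ± 0.35 and F11r by 1.73 ± 0.45 (SE; limma, Benjamini-Hochberg adjusted p = 0.0169 and 0.0492). The tight junction genes Cldn1, Tjp1 and Cxadr rose by 1.79 ± 0.46, 1.55 ± 0.40 and 1.49 ± 0.34. No junction gene kept its higher call without any 1 LHP tumor, and the count was 2 or 3 when another library was left out. Cdh1, the E-cadherin gene that Snail is best known to repress, was at 14.17, 10.54 and 11.28 in S7HP+Snail, 14.26, 14.18 and 14.95 in S7HP, and 11.96, 11.08 and 11.11 in LHP. Tumor 13 was at the S7HP level and tumors 14 and 15 were at the LHP level, and neither difference passed (adjusted p = 0.13 against S7HP and 0.66 against LHP). Ocln, the tight junction protein occludin, was at 5.09, 4.16 and 4.49 in S7HP+Snail, 8.02, 7.31 and 7.90 in S7HP, and 3.56, 3.44 and 2.15 in LHP, with a difference from S7HP of -3.16 ± 0.54 (adjusted p = 0.0204), a call lost without any 1 S7HP tumor (highest adjusted p = 0.0806).

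Pkp2, the desmosomal plaque protein plakophilin 2, fell below both other groups. It was at 6.25, 5.47 and 5.55 in S7HP+Snail, 9.43, 9.16 and 8.93 in S7HP, and 8.19, 7.79 and 7.76 in LHP. The S7HP+Snail tumors were the 3 lowest of the 9, with differences of -3.41 ± 0.30 from S7HP and -2.15 ± 0.30 from LHP (SE; limma, Benjamini-Hochberg adjusted p = 0.00277 and 0.00505), and both calls held with any library left out. It was 1 of 31 genes called lower than both groups (0.218% of those tested).

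Snail and its relatives bind the E-box CAGGTG, so the RefSeq promoters (GRCm38.p6, 250 bases before to 50 after the annotated start) were searched for these letters on either strand. They were found in 14 of 22 epithelial junction genes with a promoter sequence (63.6%) and in 2250 of 10698 tested genes with one (21.0%). Of the 5 junction genes that rose, 4 had a promoter sequence and 2 of these held the motif, Gjb1 and F11r. Their promoters are shown because both genes rose while holding the letters of a Snail-type E-box, which are in capitals; they lie at chrX:101383482-101383781 (plus strand) and chr1:171437311-171437610 (plus strand), with the match starting 168 and 122 bases before the start. The Gjb1 window belongs to a RefSeq start inside the gene's span given above. A match describes the sequence and is neither a site nor a cause.
Gjb1: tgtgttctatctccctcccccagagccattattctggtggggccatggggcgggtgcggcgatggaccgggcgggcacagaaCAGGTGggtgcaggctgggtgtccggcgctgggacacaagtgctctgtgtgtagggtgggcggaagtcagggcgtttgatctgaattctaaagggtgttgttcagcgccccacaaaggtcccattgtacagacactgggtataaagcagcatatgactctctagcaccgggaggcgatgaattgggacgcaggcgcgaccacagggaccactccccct
F11r: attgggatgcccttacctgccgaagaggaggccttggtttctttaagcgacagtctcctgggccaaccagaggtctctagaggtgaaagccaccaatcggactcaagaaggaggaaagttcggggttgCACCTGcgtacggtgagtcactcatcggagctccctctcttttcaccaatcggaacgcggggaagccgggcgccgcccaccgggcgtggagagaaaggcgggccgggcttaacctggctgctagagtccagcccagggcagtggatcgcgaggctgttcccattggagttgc

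Hepatocyte genes were higher in part. Of 24 hepatocyte secreted proteins 4 rose and none fell, with a median difference of 0.79, and of 19 liver-enriched transcription factors 3 rose and none fell, with a median of 1.33. Rbp4, the plasma retinol carrier, was at 13.67, 14.62 and 14.27 in S7HP+Snail and 11.46, 12.69 and 12.27 in LHP. Ambp, the precursor of α1-microglobulin and bikunin, was at 13.54, 13.95 and 13.44 in S7HP+Snail and 11.64, 12.35 and 12.55 in LHP. Both were high in every S7HP+Snail tumor, and Rbp4 rose by 2.05 ± 0.36 and Ambp by 1.47 ± 0.27 (SE; limma, Benjamini-Hochberg adjusted p = 0.0116 and 0.0142), calls that held with any library left out. Alb, serum albumin, rose by 2.49 ± 0.52 (adjusted p = 0.0256), lost without any 1 LHP tumor (highest adjusted p = 0.0931), and Serpina1b, an α1-antitrypsin gene whose tags may be shared with its close copies, rose by 1.87 ± 0.45. The count was 2 without LHP tumor 2, 3 or 6 and 6 without S7HP tumor 9. Apoa1 and Ttr, which hepatocytes also secrete in quantity, were not called: Apoa1 was at 13.73, 14.07 and 12.90 in S7HP+Snail and 11.52, 12.53 and 12.30 in LHP, and Ttr at 12.19, 13.27 and 11.36 in S7HP+Snail and 11.55, 12.91 and 11.78 in LHP.

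Among the transcription factors, Hnf4a, the central regulator of hepatocyte identity, was at 9.17, 8.47 and 8.45 in S7HP+Snail, 10.19, 9.91 and 9.61 in S7HP, and 6.73, 7.47 and 6.34 in LHP. Foxa2, a pioneer factor of liver development, was at 10.98, 13.06 and 11.89 in S7HP+Snail and 9.88, 9.08 and 9.17 in LHP. Nr1h4, the bile acid receptor FXR, was at 10.16, 9.84 and 9.46 in S7HP+Snail and 7.29, 8.40 and 8.35 in LHP. No LHP tumor reached the lowest S7HP+Snail tumor for any of them, and Hnf4a rose by 1.85 ± 0.34, Foxa2 by 2.60 ± 0.48 and Nr1h4 by 1.81 ± 0.33 (SE; limma, Benjamini-Hochberg adjusted p = 0.0155, 0.0158 and 0.0152). Nr1h4 kept its call in each leave-one-out fit, Hnf4a lost it without LHP tumor 2 or 6 (0.0526 and 0.0597), and Foxa2 without LHP tumor 3 or 6 (0.0659 and 0.0642); the count was 1 without LHP tumor 6, 2 without LHP tumor 3 and 5 without S7HP+Snail tumor 15. Of 8 hepatocyte markers, Hnf4a and Alb rose and none fell, and the summed level of the 8 was 76120 to 184400 normalized counts in S7HP+Snail and 23260 to 39900 in LHP. Alb alone made up most of each S7HP+Snail sum, so the sum is not a reading of 8 separate markers. The marker count was 4 without S7HP tumor 9, 1 without LHP tumor 3 and 0 without LHP tumor 2 or 6. The mature zonal enzymes Cyp2e1 and Pck1 did not separate the groups, with differences of -0.03 ± 0.76 and -0.74 ± 0.91 (adjusted p = 0.985 and 0.649).

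Gsta1 and Gsta4, glutathione transferases that conjugate reactive compounds, were the bile acid and xenobiotic genes that rose (2 of 17). Gsta1 was at 10.82, 9.70 and 9.78 in S7HP+Snail, 12.56, 13.35 and 12.46 in S7HP, and 5.52, 5.90 and 6.95 in LHP. Gsta4 was at 9.72, 8.47 and 9.91 in S7HP+Snail, 11.37, 11.77 and 11.04 in S7HP, and 6.39, 4.51 and 4.60 in LHP. In each case the 3 groups did not overlap and S7HP+Snail lay between the others. Gsta1 rose by 3.97 ± 0.44 and Gsta4 by 4.20 ± 0.54 over LHP (SE; limma, Benjamini-Hochberg adjusted p = 0.00222 and 0.00371), and Gsta1 differed from S7HP by -2.69 (adjusted p = 0.0178), a call lost without S7HP tumor 11 or 12 (highest adjusted p = 0.0831). Gsta1 has near-identical neighbors, and the counting may have divided its tags among them. Apoc2, the activator of lipoprotein lipase, chosen after its values were seen, was between the groups as well, at 12.27, 12.32 and 12.30 in S7HP+Snail, 15.34, 14.55 and 14.79 in S7HP, and 9.07, 9.46 and 9.03 in LHP, and both its calls held with any library left out (adjusted p = 0.00277 against S7HP and 0.000479 against LHP). In all, 13 genes were called higher than LHP and lower than S7HP. They include Gm3776, with values close to those of Gsta1, and Apoc4-apoc2, whose symbol joins Apoc2 to a neighbor. The 13 may therefore count some tags more than once.

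Fetal liver and oncofetal genes mark the developing liver and return in hepatocellular tumors. Of 20 tested, 8 rose and 1 fell, with a median difference of 1.22, and 7 of the 20 differences were below 0. The kinds within the list went different ways. Of 8 imprinted genes 4 rose, with a median of 2.5. Of 6 genes for RNA binding and chromatin none rose and 1 fell, with a median of -2.44. H19, an imprinted noncoding RNA (chromosome 7, 142575529 to 142578143), was at 16.30, 16.75 and 15.99 in S7HP+Snail and 9.52, 10.22 and 8.26 in LHP. Igf2, the imprinted fetal growth factor (chromosome 7, 142650766 to 142666816), lies 72622 bases from H19 and was at 15.99, 15.71 and 14.70 in S7HP+Snail and 7.32, 8.01 and 5.94 in LHP. Both genes were far higher in each S7HP+Snail tumor than in any LHP tumor, and H19 rose by 7.01 ± 0.59 and Igf2 by 8.38 ± 1.07 (SE; limma, Benjamini-Hochberg adjusted p = 0.000773 and 0.00345). S7HP tumors were at 15.76, 10.79 and 12.28 for Igf2 and 16.62, 14.51 and 15.03 for H19, with tumor 9 inside the S7HP+Snail range for Igf2. Cdkn1c, an imprinted cyclin-dependent kinase inhibitor 791522 bases from Igf2, was at 9.84, 10.25 and 10.40 in S7HP+Snail and 5.39, 6.19 and 8.28 in LHP and rose by 3.54 ± 0.70 (adjusted p = 0.0202).

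Dlk1, the imprinted delta-like ligand of hepatoblasts on chromosome 12, was at 15.03, 15.60 and 13.68 in S7HP+Snail and 9.70, 11.22 and 7.16 in LHP, a rise of 5.41 ± 1.19 (SE; limma, Benjamini-Hochberg adjusted p = 0.0298). Its imprinted neighbor Meg3, 77664 bases away, was at 14.56, 14.34 and 12.26 in S7HP+Snail and 11.82, 13.47 and 11.51 in LHP and was not called (adjusted p = 0.262). Afp, the fetal serum protein α-fetoprotein, was at 12.39, 15.41 and 11.00 in S7HP+Snail and 7.61, 7.22 and 7.81 in LHP and rose by 5.38 ± 0.96. Gpc3, a cell-surface glypican used as a marker of liver cancer, was at 11.46, 11.45 and 9.38 in S7HP+Snail and 5.75, 6.30 and 5.52 in LHP and rose by 4.90 ± 0.72. The groups were apart for each called gene, and the spread among S7HP+Snail tumors was widest for Afp. Tspan8, a tetraspanin of epithelial tumors, and Spink1, a secreted trypsin inhibitor, rose by 3.86 ± 0.59 and 4.64 ± 0.81. Hmga1, a chromatin architecture protein of fetal and tumor cells, was at 13.97, 12.52 and 15.76 in S7HP+Snail and 17.60, 17.05 and 17.60 in LHP, a fall of 3.33 ± 0.74 (adjusted p = 0.0305). With single libraries left out, 6 to 8 of the list rose: H19, Igf2, Gpc3, Tspan8 and Spink1 passed in each fit. Dlk1 was lost without S7HP+Snail tumor 13 or 14 or LHP tumor 2 or 6 (highest adjusted p = 0.0931), Afp without LHP tumor 3 (0.0594), Cdkn1c without LHP tumor 2 or 3 (0.0621 and 0.0806), and Hmga1 without S7HP+Snail tumor 13 or any 1 LHP tumor (0.0993).

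**Figure D4:**
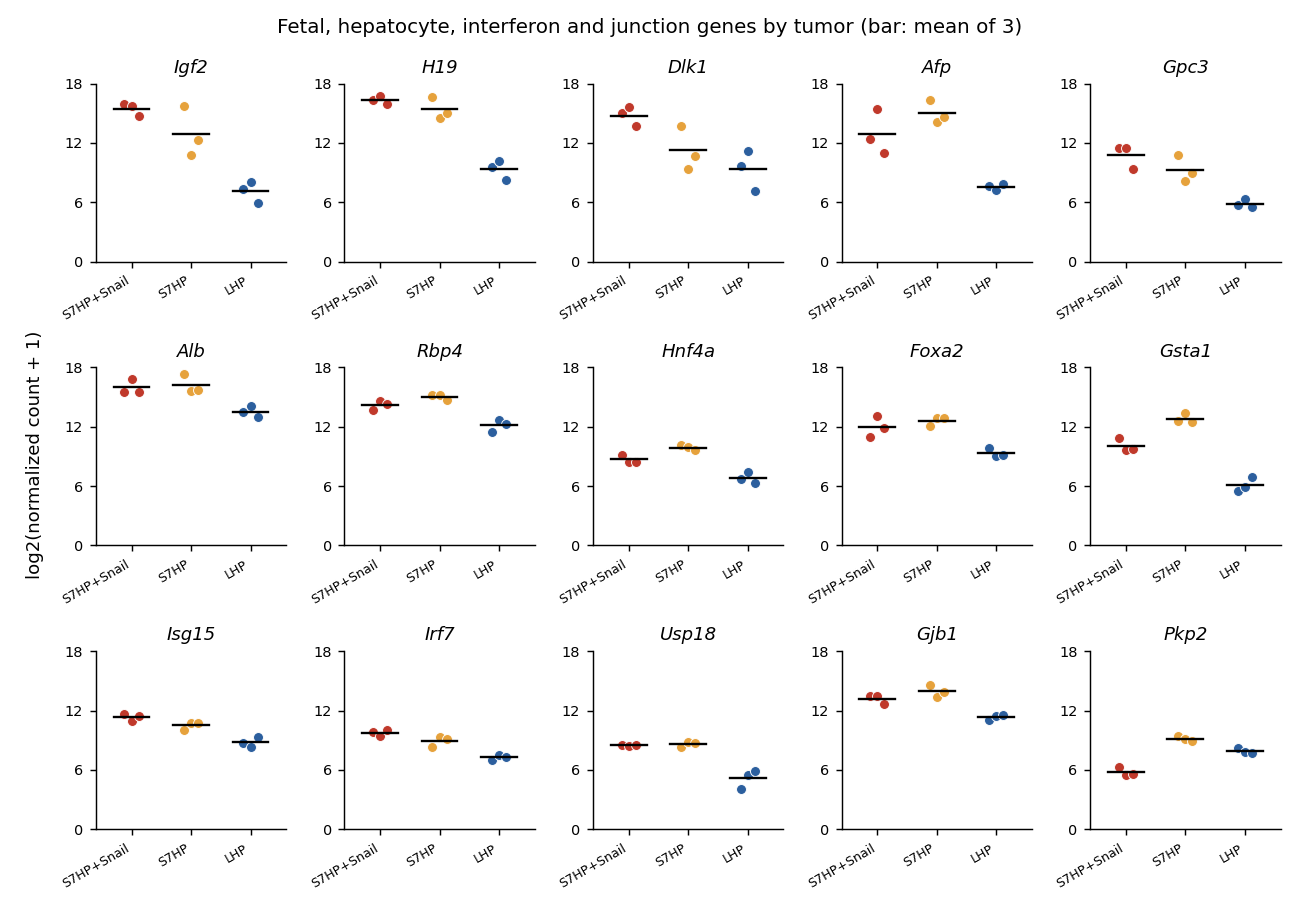
Each panel shows 1 gene, with 1 point per tumor in log2(normalized count + 1) for S7HP+Snail (red), S7HP (orange) and LHP (blue), and a bar at the mean of 3. In 14 panels the S7HP+Snail tumors lie above the LHP tumors, and for Pkp2, in the last panel, they lie below both other groups.

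Interferon response genes had the highest called share of the pathway lists. Of 24 tested, 12 rose, none fell, all 24 differences were above 0, and the median was 1.64. Isg15, the ubiquitin-like interferon product, was at 11.66, 10.99 and 11.50 in S7HP+Snail and 8.73, 8.31 and 9.35 in LHP. Irf7, the transcription factor that amplifies type I interferon, was at 9.84, 9.40 and 10.07 in S7HP+Snail and 7.01, 7.47 and 7.35 in LHP. Ifi44 was at 9.17, 8.93 and 9.04 in S7HP+Snail and 6.20, 5.99 and 6.82 in LHP, and Usp18, which removes Isg15 from proteins, at 8.54, 8.47 and 8.57 in S7HP+Snail and 4.11, 5.44 and 5.92 in LHP. The 3 S7HP+Snail tumors were close to each other and well above the LHP tumors for all 4 genes. Isg15 rose by 2.58 ± 0.33, Irf7 by 2.49 ± 0.32, Ifi44 by 2.71 ± 0.30 and Usp18 by 3.37 ± 0.43 (SE; limma, Benjamini-Hochberg adjusted p = 0.00332, 0.00338, 0.00208 and 0.00338), and these calls held with any library left out. The antiviral genes Rsad2, Ifit1, Ifit2, Ifit3, Mx2, Oas1a, Cmpk2 and Rtp4 rose by 1.43 to 2.61. The count was 7 without S7HP+Snail tumor 13, 8 without S7HP+Snail tumor 15, 6 without LHP tumor 2 and 5 without LHP tumor 3.

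LHP tumor 6 was above the other LHP tumors in the summed level of the interferon genes, though not in every gene. In 16 of the 24 every LHP tumor lay below every S7HP+Snail tumor, which was so for 14.7% of all genes tested. Cxcl10, an interferon-induced chemokine, was at 7.55, 7.68 and 6.72 in S7HP+Snail and 5.48, 4.27 and 7.37 in LHP. It was not called (limma, Benjamini-Hochberg adjusted p = 0.165), and the LHP value that overlapped was that of tumor 6. The summed level of the 24 genes was 18320 to 20560 normalized counts in S7HP+Snail, and 6624, 7166 and 19860 in LHP tumors 2, 3 and 6. A sum of unlogged values is weighted to the most abundant genes. None of 16 MHC class I and II genes was called, and their summed level was 43440 to 96720 in S7HP+Snail and 45190, 44710 and 103100 in LHP. None of 14 macrophage, 6 neutrophil or 9 T and NK cell markers was called, and the part of immune cells in the interferon levels was not tested. Macrophage markers summed to 7753 to 14190 normalized counts in S7HP+Snail and 9728 to 14420 in LHP, and T and NK cell markers to 157, 795.4 and 150 in S7HP+Snail and 148.9, 24.9 and 782.7 in LHP, where tumor 6 was again the highest. The macrophage gene Cd68 was at 9.68, 9.94 and 9.29 in S7HP+Snail and 9.84, 9.40 and 9.86 in LHP.

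The interferon-stimulated response element, bound by IRF factors, is built on pairs of GAAA, and GAAA, any 2 bases and GAAA was searched on either strand in the same promoter windows, with overlapping matches counted. It was in 8 of 18 interferon genes with a promoter sequence (44.4%), in 5 of 9 of those called higher, and in 416 of 10698 tested genes (3.89%). The promoters of Isg15 (chr4:156200769-156201068, minus strand), Rsad2 (chr12:26456403-26456702, minus strand), Ifit1 (chr19:34640639-34640938, plus strand) and Ifit3 (chr19:34583279-34583578, plus strand) are shown, with matches in capitals, as the called genes with this element and the smallest adjusted p. Isg15 has 3 overlapping matches starting 78, 72 and 66 bases before the start, Ifit1 and Ifit3 have 2 each and Rsad2 has 1. The motif and these genes were chosen after the values were seen.
Isg15: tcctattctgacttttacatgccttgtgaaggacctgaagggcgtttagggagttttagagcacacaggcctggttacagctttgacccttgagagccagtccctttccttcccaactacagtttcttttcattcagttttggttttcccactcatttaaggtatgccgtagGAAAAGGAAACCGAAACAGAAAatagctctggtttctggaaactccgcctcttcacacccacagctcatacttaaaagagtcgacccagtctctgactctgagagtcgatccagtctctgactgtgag
Rsad2: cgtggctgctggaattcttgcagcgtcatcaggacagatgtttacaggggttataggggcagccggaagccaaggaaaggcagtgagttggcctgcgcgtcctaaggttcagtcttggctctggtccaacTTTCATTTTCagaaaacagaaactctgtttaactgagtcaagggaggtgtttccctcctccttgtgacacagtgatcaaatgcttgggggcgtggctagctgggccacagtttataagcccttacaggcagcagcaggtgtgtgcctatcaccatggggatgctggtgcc
Ifit1: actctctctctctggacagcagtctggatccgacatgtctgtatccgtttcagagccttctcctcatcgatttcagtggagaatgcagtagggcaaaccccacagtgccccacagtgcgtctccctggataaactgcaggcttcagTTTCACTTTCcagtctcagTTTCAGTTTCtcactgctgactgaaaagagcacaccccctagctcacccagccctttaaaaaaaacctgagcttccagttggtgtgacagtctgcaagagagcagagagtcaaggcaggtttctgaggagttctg
Ifit3: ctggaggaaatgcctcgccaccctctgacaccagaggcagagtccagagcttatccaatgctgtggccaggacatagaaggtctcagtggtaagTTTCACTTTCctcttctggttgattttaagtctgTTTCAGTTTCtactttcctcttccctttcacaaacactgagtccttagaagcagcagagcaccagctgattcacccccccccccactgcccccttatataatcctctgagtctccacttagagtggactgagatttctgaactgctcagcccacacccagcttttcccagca

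Ligands and receptors of growth factor pathways moved both ways, with 3 of 26 higher and 4 lower. Enpp2, the secreted enzyme autotaxin that makes lysophosphatidic acid (chromosome 15, 54838901 to 54952892), was at 12.90, 14.85 and 15.22 in S7HP+Snail, 11.03, 8.74 and 7.90 in S7HP, and 7.83, 9.59 and 8.80 in LHP. The S7HP+Snail tumors were the 3 highest of the 9, and Enpp2 rose by 5.59 ± 0.84 over LHP (SE; limma, Benjamini-Hochberg adjusted p = 0.00697), a call that held with any library left out, and by 5.10 over S7HP (adjusted p = 0.0197), a call lost without S7HP tumor 11 or 12 (highest adjusted p = 0.0876). Igfbp5, a secreted binder of insulin-like growth factors, was at 10.50, 10.30 and 10.69 in S7HP+Snail, 6.93, 4.50 and 6.46 in S7HP, and 8.27, 7.54 and 7.86 in LHP, the highest in all S7HP+Snail tumors. It rose by 2.60 ± 0.54 over LHP (adjusted p = 0.0242), lost without S7HP+Snail tumor 13 or 15 or any 1 LHP tumor (highest adjusted p = 0.0883). Ackr3, a scavenging receptor for the chemokine Cxcl12, was at 8.36, 8.16 and 10.14 in S7HP+Snail and 12.16, 13.00 and 11.87 in LHP and fell by 3.46 ± 0.58 (adjusted p = 0.0101). Pdgfb, a platelet-derived growth factor chain, fell by 2.18 ± 0.42 and was lost without LHP tumor 3 or 6 (0.0724 and 0.0703). The count of the list rising was 1 without S7HP+Snail tumor 15 or any 1 LHP tumor, and the count falling was 1 without LHP tumor 3 or 6.

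The Notch ligand Jag1 had one of the smallest adjusted p-values of the comparison. Jag1 (chromosome 2, 137081456 to 137116644) was at 8.93, 9.10 and 9.58 in S7HP+Snail, 9.99, 8.89 and 9.22 in S7HP, and 13.60, 13.93 and 14.02 in LHP. The gap between the groups was far wider than the spread within either, and Jag1 fell by 4.65 ± 0.31 (SE; limma, Benjamini-Hochberg adjusted p = 0.000282), a call that held with any library left out. Nrarp, a feedback inhibitor induced by Notch, fell by 1.48 ± 0.33 (adjusted p = 0.0306), lost without S7HP+Snail tumor 13 or 14 or any 1 LHP tumor (highest adjusted p = 0.105), and the other 10 of 12 Notch genes were not called. Axl, a receptor kinase counted among YAP targets, was at 9.82, 10.27 and 10.03 in S7HP+Snail and 13.01, 12.72 and 13.02 in LHP and fell by 2.87 ± 0.36 (adjusted p = 0.00332). It was the one gene called among 16 YAP targets (2 without S7HP+Snail tumor 15 or S7HP tumor 11), where Ctgf was at 11.40, 12.59 and 13.10 in S7HP+Snail and 12.26, 11.31 and 11.58 in LHP, and Cyr61 at 10.86, 8.61 and 10.79 in S7HP+Snail and 11.88, 10.37 and 10.64 in LHP.

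Of 20 readouts of the RAS and ERK cascade, 2 rose and 2 fell. The 2 that rose were among 8 feedback inhibitors tested, Spry1 by 2.21 ± 0.46 and the ERK phosphatase Dusp6 by 1.19 ± 0.31 (limma, Benjamini-Hochberg adjusted p = 0.0238 and 0.0494). Fosl1, the AP-1 subunit FRA-1, was at 5.95, 4.93 and 7.70 in S7HP+Snail and 9.92, 10.41 and 10.60 in LHP. Areg, the EGF-receptor ligand amphiregulin, was at 6.22, 1.53 and 6.70 in S7HP+Snail and 10.88, 10.72 and 9.43 in LHP. Both were lowest in tumor 14, with falls of 4.12 ± 0.82 and 5.53 ± 1.13 (SE; adjusted p = 0.0202 and 0.0224). None of the 4 calls held throughout: Spry1 did not pass without LHP tumor 3 or 6 (adjusted p = 0.0863 and 0.077), and Dusp6 passed only in full and without S7HP+Snail tumor 13 (highest 0.16). Fosl1 and Areg did not pass without any 1 LHP tumor (highest 0.0765 and 0.084), nor did Fosl1 without S7HP+Snail tumor 13 (0.051). The count falling was 5 without S7HP+Snail tumor 15.

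Of 30 cell cycle genes 1 fell and none rose, while 29 of the 30 differences were below 0 and the median was -0.58. In 15 of the 30 the S7HP+Snail tumors were all below the LHP tumors, which was so for 15.8% of all genes tested. E2f1, a transcription factor of S-phase entry, was at 9.52, 9.62 and 9.51 in S7HP+Snail and 10.61, 11.21 and 11.56 in LHP (limma, Benjamini-Hochberg adjusted p = 0.0165), lost without LHP tumor 3 or 6 (0.0659 and 0.0674). The proliferation marker Mki67 was at 10.24, 10.25 and 9.18 in S7HP+Snail and 10.41, 10.31 and 10.69 in LHP. None of 20 fatty acid oxidation genes and none of 22 glycolysis and hypoxia genes was called. In lipid and cholesterol synthesis 5 of 22 genes fell and 1 rose (Mlxipl, the glucose-responsive factor ChREBP, whose call was lost without S7HP+Snail tumor 13 or 14, S7HP tumor 11 or any 1 LHP tumor): Idi1, Sqle and Fdps of the sterol pathway fell by 1.37, 1.56 and 1.26, the sterol sensor gene Srebf2 by 1.64 and the fatty acid synthase Fasn by 1.29. The count falling was 0 without LHP tumor 2 or 6, 1 without LHP tumor 3, and 3 and 2 without S7HP+Snail tumors 14 and 15. Got1, the cytosolic aspartate aminotransferase, fell by 1.42 ± 0.21 (adjusted p = 0.00635) with any library left out, and the urea cycle gene Otc rose by 2.69 ± 0.56, lost without S7HP+Snail tumor 13 or LHP tumor 2 or 6 (highest 0.0763). Of 19 p53 target genes Zmat3 alone was called, lower (limma, Benjamini-Hochberg adjusted p = 0.0495), and it passed in no leave-one-out fit but the one without S7HP+Snail tumor 14 (highest 0.135). Of 12 cyclin D, CDK and CDK inhibitor genes Cdkn1b and Cdkn1c rose. Cdkn1b was lost without S7HP+Snail tumor 13 or 15, S7HP tumor 11 or 12, or any 1 LHP tumor (highest 0.123), and the count was 0 without LHP tumor 2 or 3. None of 13 epithelial regulators and none of 6 erythroid markers was called, and Egfl7 was the only one of 16 endothelial markers called, higher, a call lost without any 1 S7HP+Snail or LHP tumor (highest 0.13).

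Outside the lists, the 10 largest falls among called genes with a mean level of at least 7 included several that are best known from nerve and muscle. Stmn2, a microtubule regulator of neurons, was at 5.24, 2.19 and 5.73 in S7HP+Snail and 11.86, 12.10 and 12.26 in LHP. Map2, a microtubule-associated protein of dendrites, was at 5.94, 6.01 and 6.77 in S7HP+Snail and 11.39, 10.56 and 11.82 in LHP. Tnnt2, cardiac troponin T, was at 7.70, 4.81 and 6.74 in S7HP+Snail and 13.02, 13.57 and 12.48 in LHP. These were high in all LHP tumors and low in all S7HP+Snail tumors, by 7.69 ± 1.20 for Stmn2, 5.02 ± 0.37 for Map2 and 6.60 ± 0.70 for Tnnt2 (SE; limma, Benjamini-Hochberg adjusted p = 0.00761, 0.000479 and 0.00205), and the calls held with any library left out. Ccbe1, a secreted factor that helps activate the lymphatic growth factor Vegfc, fell by 6.72 ± 0.54, and Dynap and Pthlh, the parathyroid hormone-like peptide, fell by 8.55 ± 1.87 and 6.57 ± 1.15. Dynap was the least even of these, at 4.57, 0.00 and 8.69 in S7HP+Snail and 13.55, 12.77 and 12.61 in LHP, and its call was lost without S7HP+Snail tumor 13 or any 1 LHP tumor (highest adjusted p = 0.0895); Pthlh was lost without LHP tumor 3 or 6 (0.0515 and 0.0565).

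The 10 largest falls also held 3 genes of natural killer receptors. Klra4 was at 4.57, 2.26 and 6.99 in S7HP+Snail and 11.19, 10.56 and 10.40 in LHP, and Klra18 at 3.86, 2.61 and 7.0 in S7HP+Snail and 11.07, 10.32 and 10.41 in LHP. These genes of the Ly49 cluster share sequence, and their nearly equal values may come from the same tags. Klrc1, which encodes the receptor NKG2A, was at 7.57, 7.68 and 1.96 in S7HP+Snail and 9.98, 11.39 and 11.45 in LHP. Klra4 fell by 6.11 ± 1.02, Klra18 by 6.11 ± 0.97 and Klrc1 by 5.21 ± 1.32 (SE; limma, Benjamini-Hochberg adjusted p = 0.0101, 0.00796 and 0.0452), and Klrc1 was lost without any 1 LHP or S7HP tumor (highest adjusted p = 0.14). The list of T and NK cell markers, whose sums are given above, had no called member, and 8 of its 9 differences were above 0, with a median of 1.04. Jchain, a plasma cell and B cell marker, was at 4.49, 3.61 and 2.64 in S7HP+Snail and 10.15, 6.73 and 11.29 in LHP and fell by 5.81 ± 1.15 (adjusted p = 0.0202), lost without LHP tumor 2 or 6 (0.0726 and 0.0738). It was the only one of 6 matched B cell markers above the filter, and Pax5 was at 0 in all 6 tumors.

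Among the largest increases, Itih5, a hyaluronan-binding inhibitor family member, was at 10.48, 10.28 and 11.84 in S7HP+Snail and 6.15, 6.48 and 5.84 in LHP. Prom1, the progenitor surface protein CD133, was at 14.71, 11.43 and 13.70 in S7HP+Snail and 9.35, 6.75 and 7.51 in LHP. Cxcl5, a neutrophil-attracting chemokine, was at 9.63, 10.63 and 12.84 in S7HP+Snail and 5.60, 4.86 and 6.54 in LHP. All S7HP+Snail values were above the LHP values of the same gene, and the rises were 4.71 ± 0.38, 5.41 ± 0.84 and 5.37 ± 0.81 (SE; limma, Benjamini-Hochberg adjusted p = 0.000479, 0.00763 and 0.0068), each held with any library left out. Ly6d rose by 4.81 ± 0.91 and was lost without any 1 LHP tumor (highest adjusted p = 0.0632). Prom1 and Tspan8 were the 2 of 13 biliary and progenitor markers that rose. None of the 6 neutrophil markers was called, and their summed level was 3441, 6958 and 32250 normalized counts in S7HP+Snail and 10990, 3932 and 1531 in LHP.

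Only 20 genes were higher in S7HP+Snail than in both LHP and S7HP (0.141% of those tested) and 31 were lower than in both. These comparisons share the S7HP+Snail tumors. Most of these genes lost a call with some library left out. Both calls held throughout only for Col9a1 and Rbm24 among the higher genes. Among the lower they held for Fam19a5, Igsf11, Nmt2, Npdc1 and Pkp2. Col9a1, a cartilage collagen chain chosen after its values were seen, was at 7.79, 8.65 and 6.21 in S7HP+Snail and listed at 0 in all S7HP and LHP tumors. It passed the filter only through the 3 S7HP+Snail tumors in which it was high, so its call is not independent of the filter. Apod, Gna14, Mdga2, Rbm24, Wfdc15b and Wnt6, also among the 20, entered the same way, below 4 in every S7HP and LHP tumor. Pi16, a secreted protein of adventitial fibroblasts, was at 10.05, 8.27 and 8.22 in S7HP+Snail, 4.20, 4.60 and 5.38 in S7HP, and 4.70, 5.18 and 5.86 in LHP. Pbx3, a homeobox cofactor, was at 10.42, 11.19 and 11.60 in S7HP+Snail, 8.66, 8.82 and 8.07 in S7HP, and 9.78, 9.57 and 9.16 in LHP. The S7HP+Snail tumors were the 3 highest for each. Pi16 rose by 3.60 ± 0.58 over LHP and 4.12 over S7HP, and Pbx3 by 1.56 ± 0.34 and 2.55 (SE; limma, Benjamini-Hochberg adjusted p = 0.00796, 0.00912, 0.0275 and 0.00747). Pi16 lost its call against S7HP without S7HP tumor 11 (0.0517), and Pbx3 its call against LHP without S7HP+Snail tumor 14 or 15 or any 1 LHP tumor (highest 0.0994). Prrg1 completed the set named by rule, with Enpp2 and Igfbp5.

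On the lower side, Sox11, an embryonic transcription factor, was at 8.66, 7.52 and 5.51 in S7HP+Snail, 10.98, 11.78 and 10.24 in S7HP, and 11.86, 11.72 and 12.07 in LHP. Lrp8, a lipoprotein and reelin receptor, was at 6.01, 5.28 and 6.11 in S7HP+Snail, 7.51, 8.09 and 7.40 in S7HP, and 9.53, 8.78 and 8.47 in LHP. Nt5e, the adenosine-producing ectoenzyme CD73, was at 5.45, 5.86 and 5.36 in S7HP+Snail, 8.49, 8.49 and 7.26 in S7HP, and 7.89, 9.93 and 8.20 in LHP. All were lowest in the 3 S7HP+Snail tumors. Against LHP they fell by 4.65 ± 0.68, 3.12 ± 0.38 and 3.12 ± 0.55 (SE; limma, Benjamini-Hochberg adjusted p = 0.00633, 0.00272 and 0.0124), calls that held with any library left out, and the differences from S7HP were -3.77, -1.87 and -2.52 (adjusted p = 0.0262, 0.0366 and 0.0456), calls that were lost without any 1 S7HP tumor, among others (highest 0.1, 0.13 and 0.161). Kcnab1, a potassium channel subunit, and Pomgnt2, a glycosyltransferase of dystroglycan, fell by 3.76 ± 0.72 and 2.70 ± 0.48 against LHP. Against LHP, Kcnab1 was lost without any 1 LHP tumor (highest 0.0643) and Pomgnt2 without LHP tumor 2 or 6 (0.0538). Against S7HP, Kcnab1 was lost without S7HP tumor 11 or 12 (0.0887) and Pomgnt2 without any 1 S7HP or LHP tumor (0.12).

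The 3 S7HP+Snail tumors differed widely among themselves in some gene groups, chosen for description after their values were seen. All 13 Wnt and β-catenin target genes tested were highest of the 9 tumors in tumor 14, and 11 of them were there more than 2 log2 units above both other S7HP+Snail tumors. Of all 14215 genes tested, 768 lay that far above or below both others in tumor 14, and no gene of the list lay that far below. The share of all genes that were highest in tumor 14 is not given here. In the other lists it ranged from 0 of 30 cell cycle genes to 9 of 16 endothelial markers. Nkd1, a feedback antagonist of Wnt signaling, was at 4.74, 12.92 and 2.92 in S7HP+Snail and 5.93, 6.71 and 5.97 in LHP. Axin2, the scaffold of the β-catenin destruction complex, was at 4.17, 10.15 and 3.76 in S7HP+Snail and 4.57, 5.09 and 5.14 in LHP, and Lef1, a partner of β-catenin at DNA, at 5.24, 12.25 and 4.86 in S7HP+Snail and 8.03, 9.16 and 7.18 in LHP. Glul, glutamine synthetase of pericentral hepatocytes, was at 10.87, 13.64 and 9.51 in S7HP+Snail and 10.39, 11.26 and 10.75 in LHP. In tumors 13 and 15 these 4 genes were below the lowest LHP value, apart from Glul in tumor 13. The summed level of the list was 4356, 43150 and 3464 normalized counts in S7HP+Snail and 4769 to 9126 in LHP, and none of the 13 was called.

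Tumor 13 was set apart by epithelial genes. Of 13 epithelial regulators, 8 were more than 2 log2 units higher in tumor 13 than in both other S7HP+Snail tumors, and of 33 junction genes 9 were. Of all 14215 genes tested, 426 lay that far above or below both others in tumor 13, and no gene of these 2 lists lay that far below. Epcam, the epithelial adhesion molecule, was at 12.96, 4.20 and 8.19 in S7HP+Snail and 7.29, 5.44 and 5.77 in LHP. Cldn7, a claudin of simple epithelia, was at 11.69, 2.26 and 6.11 in S7HP+Snail and 7.78, 6.14 and 6.89 in LHP, and Esrp1, a splicing factor of epithelial cells, was at 8.02, 0.00 and 0.00 in S7HP+Snail and 3.97, 1.22 and 3.68 in LHP. Tumor 14 was the lowest or joint lowest of the S7HP+Snail tumors for each of these. Krt19, a biliary keratin, was at 12.53, 4.35 and 11.29 in S7HP+Snail and 9.64, 9.76 and 8.27 in LHP, with tumor 14 alone below the LHP values. The genes with the widest spread among the 3 tumors were likewise low in tumor 14, among them Reg3b, an intestinal-type antibacterial lectin, at 13.51, 1.53 and 13.20 in S7HP+Snail and 5.34, 0.29 and 3.27 in LHP, Agr2, a secretory-cell disulfide isomerase, at 10.89, 1.22 and 13.04 in S7HP+Snail and 9.41, 3.27 and 0.00 in LHP, and Dmbt1, a mucosal glycoprotein, at 13.92, 2.92 and 12.72 in S7HP+Snail and 8.66, 6.04 and 7.62 in LHP. With tumor 14 left out, 910 genes were called between S7HP+Snail and LHP, against 1026 with it.

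**Figure D5:**
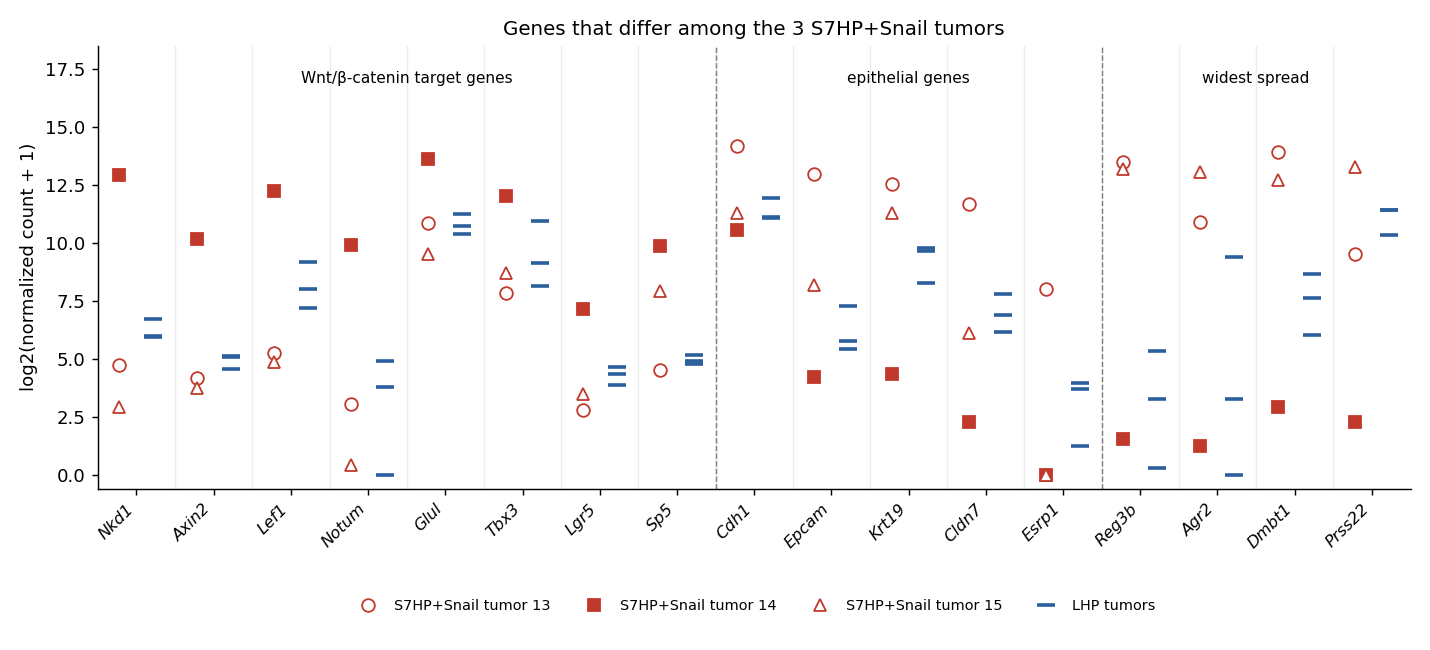
For each gene on the x axis, red symbols give the log2(normalized count + 1) of S7HP+Snail tumors 13 (open circle), 14 (filled square) and 15 (open triangle), and blue dashes to their right give the 3 LHP tumors. Tumor 14 lies highest for the 8 Wnt/β-catenin target genes shown, with Nkd1 at 12.92, and lowest or joint lowest of the S7HP+Snail tumors for the epithelial genes and for 4 of the genes with the widest spread.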

How the data were processed

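QuantSeq 3′ RNA-seq was run on 9 mouse liver tumors, 3 per group, grouped by their labels. The deposited values are log2 of quantile-normalized counts plus 1 per gene symbol. The submitters' processing notes name Bowtie2, edgeR and the build mm10; which tool counted reads, and on which annotation, is not given in the sources used here. Raw counts had been assumed when the tests were chosen; since the values are logged and normalized, limma 3.58.1 in R 4.3.3 was used, on all 9 libraries in one fit (lmFit, trended and robust eBayes, 6 residual degrees of freedom), two-sided, with Benjamini-Hochberg adjustment over 14215 genes and a threshold of 0.05. The script was tested on simulated data. Members and gene lists were chosen with earlier results of these data known. Lists held 702 entries, of which 699 matched a symbol (Ccn1 and Ccn2 as Cyr61 and Ctgf) and 34 were below the filter. Genes named by rule were the construct genes, Hras and Trp53; the 10 largest differences each way among called, non-overlapping genes with a mean of at least 7; up to 4 called members per list; 5 each way called against both other groups; and 8 of widest spread among S7HP+Snail tumors. Genes named beyond the rule, and non-members of it described as between groups, were chosen after their values were seen. Coordinates are from GENCODE on GRCm38, where 95.5% of symbols matched 1 gene, and promoters are from RefSeq. Summed levels are of unlogged values. Alternatives varied the libraries, variance model, filter, pseudocount and scaling, and left out each library. Figures used matplotlib 3.10.9. Results for some genes are not reported here.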

Additional observations from a re-analysis of the deposited data

How the results depend on the processing

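Between S7HP+Snail and LHP 1026 genes were called (476 higher), against 682 (303 higher) with only those 6 libraries in the fit, of which 615 were among the 1026. Other settings that kept all libraries (no variance trend, no filter, a filter at 6, a pseudocount of 16, median centring) gave counts within 1.5 times. Leaving out 1 library gave 293 to 1049 called, lowest without LHP tumor 3 (293), LHP tumor 6 (311) and LHP tumor 2 (452); 150 to 493 were higher and 138 to 556 lower. In all, 230 genes were called in every leave-one-out fit. Of 97 called genes named by rule, 42 kept the call in every leave-one-out fit and 73 in every setting that kept all libraries, and none reversed. The same alternatives were applied to S7HP+Snail against S7HP after seeing the data: 327 genes were called, and 63 to 451 with 1 library left out, lowest without S7HP tumor 11 (63), S7HP tumor 12 (87) and S7HP tumor 9 (136). No paired analysis was possible because the groups share no tumor numbers. With 3 tumors a group, 672 genes that differed over 4-fold were not called, and values under about 3 reads (log2 1.22 to 2.64) are at the limit of depth.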
